A study of Mus musculus with 9 samples.

Results

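Integrins and the genes of focal adhesions were followed in cells sorted from the developing mouse forelimb. The set holds 39 genes chosen by symbol: 19 integrin subunits, both discoidin domain receptors, and 18 genes for proteins that bind integrin tails or link them to actin. Of these, 36 had a probe set among the 18193 genes measured and 30 passed the filter on low signals, out of 11572 genes tested. Another 6 genes, Itga2, Itga7, Itgb4, Itgb6, Itgb7 and Lims2, were too low to be tested, and Itga11, Fermt1 and Ptk2 are not analysed here.

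The cells came from forelimbs of Scx-GFP mouse embryos, in which green fluorescent protein reports Scx, a transcription factor gene of tendon progenitors. GFP-positive cells were taken by cell sorting after trypsin digestion at the embryonic stages E11.5, E12.5 or E14.5 (E for embryonic day), and their amplified total RNA was hybridised to Affymetrix Mouse Genome 430 2.0 arrays. Each stage had 3 arrays, lettered A, B and C. All 3 groups carry the same reporter and differ in age, per the labels; no reporter-negative or mutant group enters the comparison, and a gene's change is a change within GFP-positive cells. The labels do not say which sequences drive GFP, which of the named sorters was used for which sample, or whether embryos were pooled.

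Integrins are surface receptors built of an alpha and a beta chain, and the alpha chain largely sets which matrix protein is bound: collagen, laminin, or proteins with an RGD motif such as fibronectin. Inside the cell, talin and kindlin bind the beta tail and switch the receptor on, vinculin strengthens the link to actin, and the complex of integrin-linked kinase (ILK), PINCH and parvin forms a second bridge. In tendon these contacts hold the cells to a collagen-rich matrix and carry mechanical load.

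Part of the adhesion genes rose between E11.5 and E14.5, and 0 were called between E11.5 and E12.5. Between E11.5 and E14.5, 10 of the 30 tested members rose and 1 fell, beside 22.8% of all tested genes called higher and 17.7% called lower. The 10 were Itga1, Itga8, Itga10, Itgb1, Itgb5, Ilk, Parva, Tgfb1i1, Tns1 and Vcl, and the 1 that fell was Parvb. The median change of the members was 0.36 on the log2 scale, against 0.0034 over all tested genes. With each array centred on its median, which moved the median change of all tested genes to -0.198, 3 members (Itga1, Itgb3 and Tgfb1i1) were called higher and 1 lower.

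In the first interval, E12.5 against E11.5, limma called 0 of 30 members in either direction, beside 3.11% of all tested genes called higher and 0.441% called lower. At an unadjusted p under 0.05 there were 2 members, and each alternative also gave 0. The median member change was 0.09, against 0.04 over all tested genes. In the second interval, E14.5 against E12.5, 8 members rose and 1 fell, beside 12.6% of all tested genes called higher and 9.32% called lower. The median member change there was 0.28, against -0.05 over all tested genes. Of the 8 risers, 7 also rose over the whole course (Itga1, Itga8, Itgb1, Itgb5, Ilk, Parva and Tgfb1i1), Itga6 was called higher in this interval and not over the course, and Parvb fell in both. These comparisons share arrays, and the second interval is longer than the first, with changes not scaled for time. With median centring this interval had 1 member called higher, Itga1, and 0 called lower, and without the 3 letter A arrays it had 2 higher and 0 lower.

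A call here means an adjusted p under 0.05 over all genes tested in limma, and "changes" are log2 differences of the signal after values under 22.7 were raised to that floor. Signals are MAS5 intensities of 1 probe set, so they are compared between arrays and not between genes. Unless said otherwise, 3 values in a row belong to arrays A, B and C. The RNA is from bulk cells, so a larger share of cells that express a gene and more RNA per cell cannot be told apart.

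**Figure D1:**
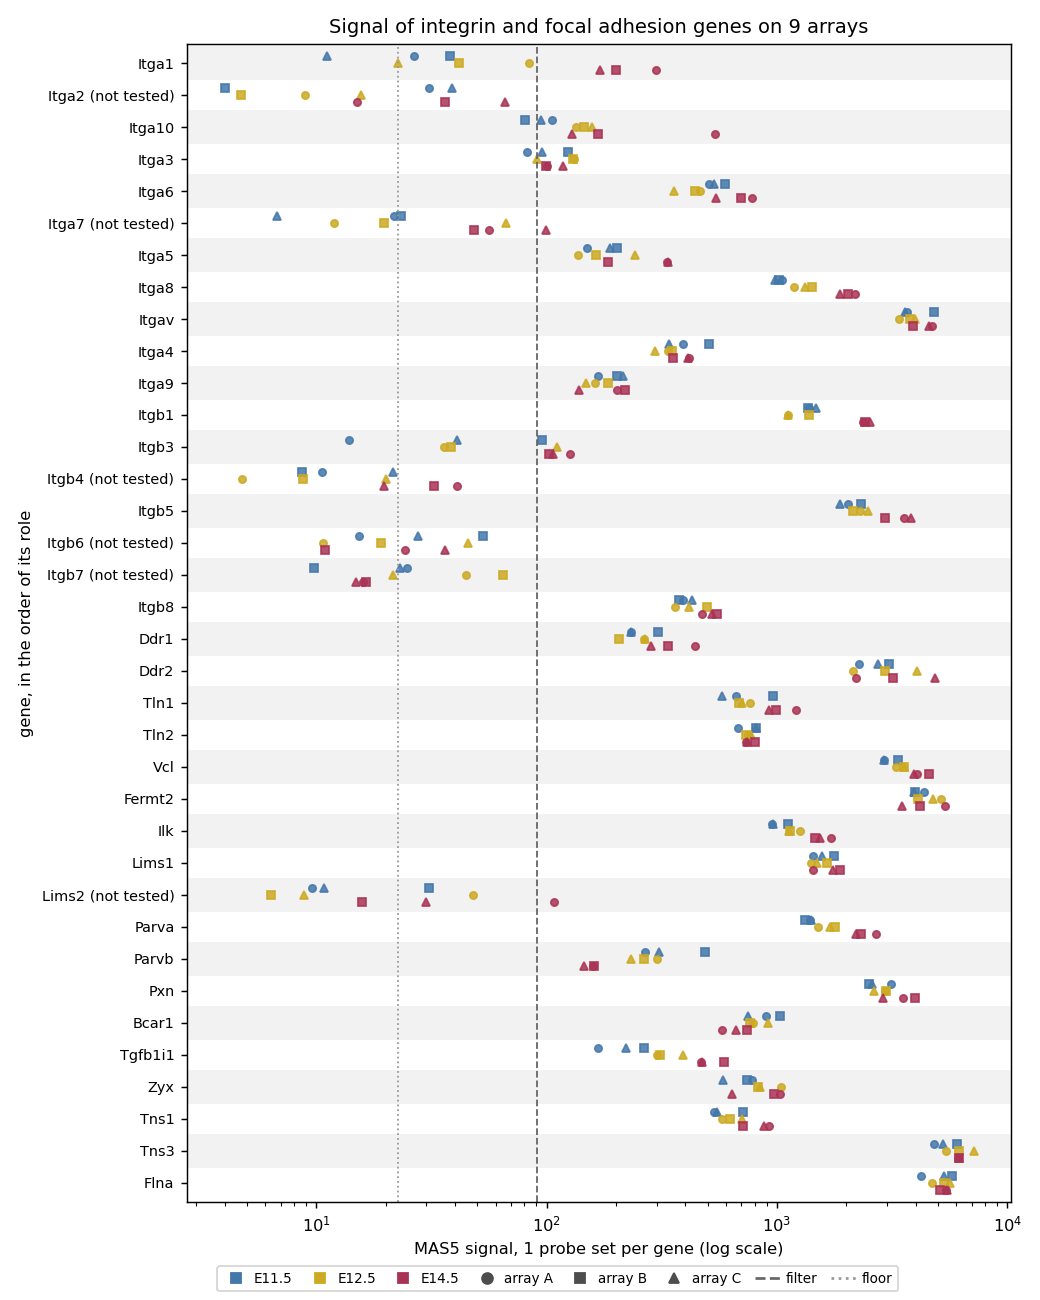
MAS5 signal (log scale) of each of the 36 members with a probe set on the 9 arrays, with colour for the stage and shape for the array letter; the dotted line is the floor of 22.7 and the dashed line the filter value of 90.6. Most members keep a narrow range over the stages, Itga1 moves from near the floor to above the filter, and the 6 members marked as not tested lie mostly below the dashed line.

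Promoter windows of 4 risers are shown because 3 of them hold a match to the TEAD motif and the fourth, Itga1, had the largest change at the floor used here. They run from 250 bases before to 50 bases after the RefSeq start of the gene on GRCm38.p6: Itga1 at chr13:115101915-115102214, minus strand; Itgb1 at chr8:128685404-128685703, plus strand; Vcl at chr14:20929148-20929447, plus strand; and Itga10 at chr3:96645334-96645633, plus strand. Capitals mark matches to the TEAD motif (GGAATG) or the CArG box, the site of serum response factor, on either strand.
Itga1: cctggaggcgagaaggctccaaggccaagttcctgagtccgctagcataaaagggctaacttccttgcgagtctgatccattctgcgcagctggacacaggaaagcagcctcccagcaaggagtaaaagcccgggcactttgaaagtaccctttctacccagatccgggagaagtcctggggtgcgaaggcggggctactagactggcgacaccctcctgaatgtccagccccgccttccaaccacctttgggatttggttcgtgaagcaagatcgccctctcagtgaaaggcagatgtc
Itgb1: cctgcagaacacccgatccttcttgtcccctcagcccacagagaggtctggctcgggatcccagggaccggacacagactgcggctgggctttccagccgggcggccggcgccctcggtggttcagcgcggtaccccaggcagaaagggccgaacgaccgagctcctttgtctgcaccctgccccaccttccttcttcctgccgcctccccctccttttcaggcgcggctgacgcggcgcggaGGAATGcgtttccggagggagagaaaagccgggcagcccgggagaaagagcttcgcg
Vcl: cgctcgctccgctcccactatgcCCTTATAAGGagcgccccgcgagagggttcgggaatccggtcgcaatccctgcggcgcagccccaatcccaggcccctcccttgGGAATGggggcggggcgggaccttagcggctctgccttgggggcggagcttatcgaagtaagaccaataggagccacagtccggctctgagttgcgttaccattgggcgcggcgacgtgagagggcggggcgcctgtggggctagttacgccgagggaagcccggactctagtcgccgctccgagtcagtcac
Itga10: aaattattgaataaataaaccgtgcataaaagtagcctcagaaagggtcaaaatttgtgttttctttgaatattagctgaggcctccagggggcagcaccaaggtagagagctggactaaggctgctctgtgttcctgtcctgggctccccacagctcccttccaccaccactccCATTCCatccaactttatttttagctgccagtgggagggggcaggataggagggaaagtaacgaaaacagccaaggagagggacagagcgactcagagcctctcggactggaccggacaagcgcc
The Vcl window held both a CArG box and a TEAD match, Itgb1 and Itga10 held a TEAD match, and Itga1 held neither. RefSeq windows were used for 29 of the 39 members. Windows on 1 chromosome were left out of the member counts and kept in the counts over all genes. A CArG box was present in 3 of the 29 (Vcl, Fermt2 and Itgb6), against 1.81% of the 27025 genes with a window of this length in the RefSeq table. A gene counts if any of its windows holds the motif, and the 29 members had 38 windows. The TEAD motif was present in 4 (Itga10, Itgb1, Vcl and Flna), against 16.58% of all genes. The AP-1 motif (TGANTCA) was present in 4 (Ddr1, Itga3, Itga9 and Zyx), against 8.97%, and the general E-box (CANNTG), the motif class that Scx binds, in 20, against 74.99%. Of the 8 risers with a window, 3 held TEAD, 1 CArG, 0 AP-1 and 4 an E-box. Matches of different motifs were searched for separately and may overlap, and each is a match of letters only.

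Among collagen receptors, Itga1 and Itga10 rose. Itga1 encodes the alpha1 chain, which with beta1 binds collagens, with a preference for collagen IV. Its signals were 26.7, 38.0 and 11.1 at E11.5, 83.8, 41.6 and 22.6 at E12.5, and 297, 200.2 and 171 at E14.5. All E14.5 arrays were above all earlier arrays, and the E11.5 and E12.5 arrays, which overlapped, all stayed below the filter value of 90.6, so Itga1 passed the filter through its E14.5 arrays alone. The change from E11.5 to E14.5 was 2.93 (SE 0.43, adjusted p = 0.000639), and from E12.5 to E14.5 it was 2.34 (SE 0.43, adjusted p = 0.00491). Because the early signals lie near the floor, the size depends on it: with the floor at the median of all signals, under which all 6 earlier arrays take the same floor value, the change was 1.26 in both comparisons. Its other probe set had stage means below the floor of 22.7 at all 3 stages and gave 0.16 over the course.

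Itga10, the alpha10 chain, is a collagen II receptor of cartilage. Its signals were 106, 80.7 and 94.3 at E11.5, 134, 145 and 158 at E12.5, and 539, 167 and 129 at E14.5. Array E14.5 A stood far above the other 2 of its stage, although the E11.5 and E14.5 groups did not overlap. The change from E11.5 to E14.5 was 1.28 (SE 0.43, adjusted p = 0.0402). Without array E14.5 A it was 0.66 (adjusted p = 0.0207), and the call was lost without array A, B or C of E11.5 or array A, B or C of E12.5 (adjusted p 0.0532 to 0.109). The same array had the highest sum of cartilage marker signals: over 9 marker genes, all 9 with a probe set, the sums were 15719 to 18952 at E11.5, and 78187, 18401 and 8816 on E14.5 arrays A, B and C. The cartilage gene Acan read 5409, 554 and 185 on those arrays. Itga2, the alpha2 chain, reached at most 66.1 on any array and was not tested.

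Both discoidin domain receptors, collagen-binding tyrosine kinases that work without integrins, missed the threshold. Ddr2 signals were 2267, 3064 and 2730.1 at E11.5, 2128, 2948 and 4060.5 at E12.5, and 2208, 3173 and 4826 at E14.5. The stages overlapped throughout, and its change from E11.5 to E14.5 was 0.28 (SE 0.31, adjusted p = 0.505) with a 95% interval of -0.41 to 0.96. Its other probe set, above the filter value on all 9 arrays, gave 0.67. Ddr1 had a difference of 0.45 (adjusted p = 0.0970) over the course and of 0.50 (adjusted p = 0.0958) in the second interval, where its groups did not overlap. Its probe sets disagreed: of the other 3 above the filter value on all 9 arrays, each an _x_at set open to related sequences, the changes over the course were 0.91, 0.37 and -0.09 and those of the second interval 1.14, 0.64 and 0.04.

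The collagen genes had a larger median change from E11.5 to E14.5 than the 30 tested members, at 2.35 against 0.36. For the 2 tested collagen-binding alpha chains, Itga1 and Itga10, the median was 2.11. Of 18 collagen genes tested, 15 rose and 0 fell between E11.5 and E14.5, beside 22.8% of all tested genes called higher and 17.7% lower. By E12.5, 5 rose, and 16 rose from E12.5 to E14.5, beside 3.11% and 12.6% of all tested genes called higher. Col5a3, counted in the 15 and the 16, was below the filter value on all E11.5 and E12.5 arrays and passed it through E14.5 alone. Col1a1, a chain of the main tendon collagen, had signals of 921, 1211 and 1242 at E11.5, 1646, 1979.6 and 1891 at E12.5, and 14420.2, 9908 and 11620.4 at E14.5, and its change was 3.41 (SE 0.18, adjusted p = 1.90e-06). No array of one stage overlapped with another stage. The largest changes were those of Col14a1, a collagen on the surface of fibrils, at 5.16, and of the collagen VI genes Col6a1, Col6a3 and Col6a2 at 4.20, 3.92 and 3.46. Col1a2 and Col3a1, already high at E11.5, rose by 0.89 and 0.87, while Col2a1 of cartilage gave 0.45 (adjusted p = 0.542). Of the collagen IV genes, Col4a2 rose by 1.03 over the course. Col4a1 gave 0.55 (adjusted p = 0.0597) over the course and rose by 0.80 in the second interval. Whether receptor and ligand lists differ was not tested.

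Of the laminin-binding alpha chains, Itga6 was called, in the second interval. Its signals were 508, 592 and 532 at E11.5, 465, 439 and 358 at E12.5, and 775, 700.2 and 545 at E14.5. The E12.5 arrays were the lowest, below all arrays of both other stages. The change was -0.38 (SE 0.17, adjusted p = 0.314) in the first interval, 0.67 (SE 0.17, adjusted p = 0.0197) in the second and 0.30 (SE 0.17, adjusted p = 0.189) over the course. The difference between the intervals was 1.05 (SE 0.29, adjusted p = 0.177). The second-interval call was lost without array C of E12.5 or array A or B of E14.5 (adjusted p 0.0561 to 0.0720). Itga3 lay near the filter value at all stages, with means of 100.2 ± 21.4 at E11.5, 117 ± 22.8 at E12.5 and 106 ± 10.6 at E14.5 (SD, n = 3), and its change over the course was 0.10 (adjusted p = 0.731). Itga7, known from muscle, reached at most 98.9 and was not tested.

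Among 7 tested laminin chains, 5 rose and 1 fell between E11.5 and E14.5, beside 22.8% of all tested genes called higher and 17.7% lower. Their median change was 1.16. Lama4, found around vessels and in mesenchyme, rose from 473 ± 84.2 to 2795 ± 520.2 (SD, n = 3), by 2.56 (SE 0.18, adjusted p = 8.96e-06). Lamb2, Lamc1, Lamb1 and Lama2 rose by 1.54, 1.53, 1.16 and 0.82. Lama1 of early basement membranes fell by 1.37 in the first interval and rose by 0.62 in the second, for -0.74 (adjusted p = 0.0138) over the course. In the second interval 6 of the 7 laminin genes rose and 0 fell, beside 12.6% of all tested genes called higher and 9.32% lower.

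Of the RGD-binding alpha chains, Itga8 was the one that rose. The alpha8 chain pairs with beta1 and binds nephronectin, fibronectin and tenascin C. Its signals were 1049, 1016 and 984 at E11.5, 1184, 1413 and 1326 at E12.5, and 2171, 2029 and 1877 at E14.5. No 2 stages overlapped. The change was 0.99 (SE 0.12, adjusted p = 0.000277) over the course and 0.63 (SE 0.12, adjusted p = 0.00711) in the second interval, and a second probe set gave 0.90 over the course. The first-interval change, 0.36 (SE 0.12, adjusted p = 0.185), missed the threshold.

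Itgav, the alpha chain of the vitronectin and latent TGF-beta receptors, had signals of 3666, 4824 and 3605 at E11.5, 3367, 3763 and 3956 at E12.5, and 4715, 3886 and 4558 at E14.5. All 3 stages overlapped, and the change over the course was 0.13 (SE 0.16, adjusted p = 0.543), with a 95% interval of -0.22 to 0.48. Itga5, the alpha chain of the classical fibronectin receptor, read 149.8, 202 and 189 at E11.5, 136, 164 and 241 at E12.5, and 332, 184 and 335 at E14.5. On E14.5 array B it stayed within the range of E11.5. Its change of 0.61 (SE 0.28, adjusted p = 0.108) missed the threshold; without array E14.5 B it was 0.90 (adjusted p = 0.0223). Itga4 and Itga9, which bind fibronectin variants, VCAM1 and tenascin C, had differences of -0.05 (adjusted p = 0.832) and -0.08 (adjusted p = 0.784), with 95% intervals of -0.43 to 0.32 and -0.51 to 0.36. Another probe set of Itga9 gave 0.42.

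Of 14 tested genes for RGD proteins, matricellular proteins or other ligands, 11 rose and 0 fell (median change 1.24). The 11 include Vcam1, the gene of a cell surface ligand and not of a matrix protein, which rose by 0.77 (adjusted p = 0.00893). Over all tested genes 22.8% were called higher and 17.7% lower. Fn1, fibronectin, had signals of 7129.6, 12421 and 10045 at E11.5, 8085, 10396 and 12025 at E12.5, and 14575, 13386 and 17929 at E14.5, and rose by 0.66 (SE 0.23, adjusted p = 0.0447) over the course. Postn, periostin, a matrix protein of connective tissue, went from 586 ± 506 to 22164 ± 4482 (SD, n = 3), by 5.57 (SE 0.56, adjusted p = 7.63e-05). Tnc, tenascin C, rose by 2.56, and Fbln5, an elastic fibre protein with an RGD motif, by 3.54. Ccn3, a matricellular gene, was below the filter value on all E11.5 and E12.5 arrays and passed it through E14.5 alone, with a mean of 25.9 ± 18.1 at E11.5 and of 1503 ± 611 at E14.5 (SD, n = 3), so the size of its change depends on the floor. The alpha8 ligand Npnt, nephronectin, rose by 0.88 (SE 0.16, adjusted p = 0.00259). Of 4 tested genes of latent TGF-beta, all rose: Ltbp3 by 3.0, Tgfb3 by 1.79, Ltbp1 by 1.31 and Tgfb2 by 1.01 (median 1.55). In the first interval 2 of these 4 rose, in the second 3. For the 14 the counts were 2 and 9, beside 3.11% and 12.6% of all tested genes called higher. Tgfb1 and Vtn, vitronectin, were too low to be tested, and Spp1 and Fbn1 are not analysed here. Vtn reached at most 47.7 on any array.

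Of the beta chains, Itgb1, the partner of most alpha chains above, changed in the second interval. Its signals were 1377, 1359 and 1482 at E11.5, 1110.2, 1372 and 1111 at E12.5, and 2372, 2420.1 and 2523 at E14.5. The E11.5 and E12.5 arrays overlapped, and all E14.5 arrays stood well above both. The change was -0.24 (SE 0.13, adjusted p = 0.419) in the first interval and 1.03 (SE 0.13, adjusted p = 0.000688) in the second, and 0.80 (SE 0.13, adjusted p = 0.00119) over the course. It was the only member whose second-interval change was called different from its first, by 1.27 (SE 0.22, adjusted p = 0.0427), beside 0.639% of all tested genes called with a larger second change and 0.138% with a smaller one. That call was lost whichever of the 9 arrays was left out (adjusted p 0.0627 to 0.188) and with the letters as a replicate block (adjusted p = 0.0555). The changes were not scaled for time, and the second interval is the longer. Another 2 probe sets of Itgb1 above the filter gave 0.52 and 0.60 over the course. Averaging all 6 probe sets of the gene gave 0.32 (adjusted p = 0.0946) over the course and 0.45 (adjusted p = 0.0464) in the second interval.

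Itgb5, which pairs with alphav and binds vitronectin, read 2039.7, 2303 and 1875 at E11.5, 2281, 2137 and 2473 at E12.5, and 3548, 2935 and 3829 at E14.5. Every E14.5 array was above every earlier array. The change was 0.73 (SE 0.15, adjusted p = 0.00378) over the course, where 3 other probe sets gave 0.69 to 0.89, and 0.58 (SE 0.15, adjusted p = 0.0215) in the second interval, a call lost without array A or B of E12.5 or array A or C of E14.5 (adjusted p 0.0565 to 0.0769). Itgb3, another partner of alphav, was low, with means of 49.9 ± 41.3 at E11.5, 61.7 ± 42.7 at E12.5 and 111 ± 12.7 at E14.5 (SD, n = 3). Its E14.5 arrays were above its E11.5 arrays, but the change of 1.32 (SE 0.53, adjusted p = 0.0756) missed the threshold; it was called without E11.5 B or without E12.5 C. Itgb8, which with alphav activates latent TGF-beta, had a difference of 0.38 (adjusted p = 0.0664) with no overlap between E11.5 and E14.5. The epithelial chains Itgb4 and Itgb6 and the lymphocyte chain Itgb7 reached at most 40.7, 53.1 and 64.4.

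**Figure D2:**
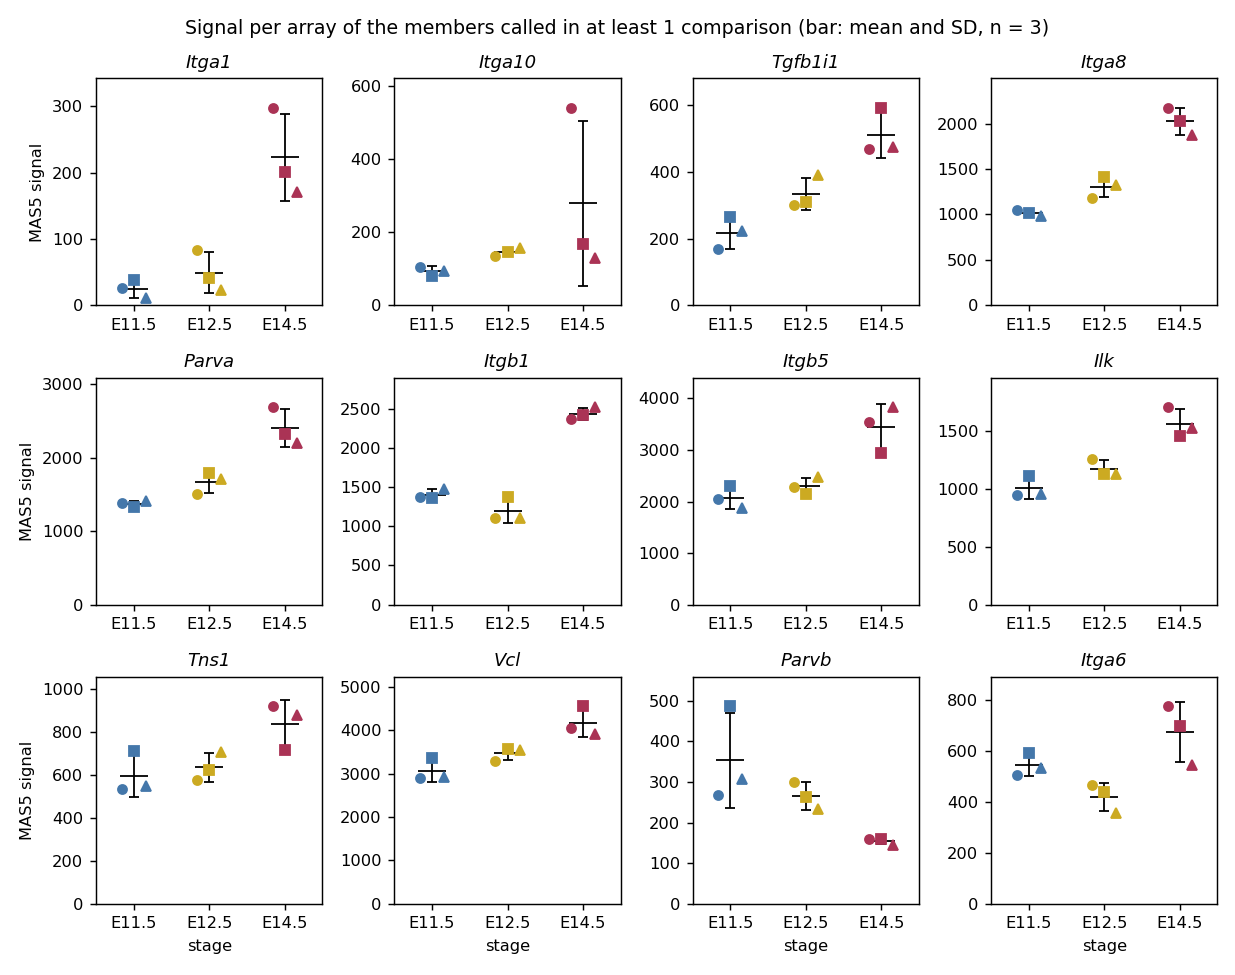
MAS5 signal (linear axis from 0) on each array of the 12 members called in at least 1 comparison of stages, with circles, squares and triangles for arrays A, B and C and bars for the mean and SD of 3 arrays. Itgb1 overlaps between E11.5 and E12.5 and is higher at E14.5, the stages of Itga8, Parva and Tgfb1i1 do not overlap, Itga10 at E14.5 has array A far above B and C, and Parvb falls.

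At the integrin tail, Vcl was the only called gene of the talin, vinculin and kindlin group. Vinculin binds talin and actin at adhesions under tension. Its signals were 2905, 3364 and 2925 at E11.5, 3298, 3563 and 3556 at E12.5, and 4056, 4554 and 3913 at E14.5. E11.5 and E14.5 did not overlap, with a change of 0.45 (SE 0.13, adjusted p = 0.0185), and the call was lost without array A or C of E11.5 or array B of E14.5 (adjusted p 0.0565 to 0.0627). With median centring the change was 0.25 (adjusted p = 0.626). Tln1, the main talin, read 662, 956 and 579 at E11.5, 759, 686 and 702 at E12.5, and 1209.8, 993 and 926 at E14.5. One E11.5 array lay within the E14.5 range, and the change of 0.53 (SE 0.19, adjusted p = 0.0518) was just over the threshold, with 2 other probe sets at -0.02 and 0.29. In the second interval these gave -0.49 and 0.88, against 0.53 for the probe set used. Without array E11.5 B it was 0.74 (adjusted p = 0.00863). Tln2 and the kindlin gene Fermt2 had differences of -0.01 (adjusted p = 0.971) and 0.07 (adjusted p = 0.784), with 95% intervals of -0.28 to 0.27 and -0.32 to 0.45. Another probe set of Tln2, above the filter value on all 9 arrays, gave 0.71 over the course and 0.66 in the second interval.

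In the ILK, PINCH and parvin complex the parvin genes moved in opposite directions. Ilk, the scaffold of the complex, read 948, 1117 and 961 at E11.5, 1261, 1134 and 1129 at E12.5, and 1708, 1460.0 and 1531 at E14.5. The 3 stages did not overlap. Its change over the course was 0.64 (SE 0.13, adjusted p = 0.00394). The second-interval change of 0.41 (SE 0.13, adjusted p = 0.0478) was lost without array A or C of E11.5, array A, B or C of E12.5 or array A, B or C of E14.5 (adjusted p 0.0617 to 0.132) and with the letters as a replicate block (adjusted p = 0.0507).

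Parva, alpha-parvin, the widely expressed actin-binding member of the complex, read 1388, 1326 and 1409 at E11.5, 1503, 1788 and 1706 at E12.5, and 2689.5, 2323 and 2196 at E14.5. No stages overlapped. It rose by 0.80 (SE 0.13, adjusted p = 0.00124) over the course and by 0.53 (SE 0.13, adjusted p = 0.0193) in the second interval, the latter lost without array A or C of E12.5 or array A of E14.5 (adjusted p 0.0503 to 0.0744). Its other probe set, above the filter value on all 9 arrays, gave 0.22 over the course and -0.18, the opposite direction, in the second interval. The mean of both gave 0.51 (adjusted p = 0.0303) over the course and 0.17 (adjusted p = 0.494) in the second interval.

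Parvb, beta-parvin or affixin, had signals of 267, 486 and 307 at E11.5, 301, 264 and 233 at E12.5, and 159, 159.7 and 146 at E14.5. All E14.5 arrays were below all others, and array E11.5 B was the highest. It fell by 1.14 (SE 0.21, adjusted p = 0.00255) over the course, and this call held without each array in turn. The second-interval change of -0.77 (SE 0.21, adjusted p = 0.0301) was lost without array A or B of E12.5 or array A, B or C of E14.5 (adjusted p 0.0611 to 0.101). Its other probe set did not pass the filter. The PINCH gene Lims1 had a difference of 0.08 (adjusted p = 0.708), with a 95% interval of -0.26 to 0.41, and Lims2 was above the filter value on 1 array only.

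Among scaffold proteins, Tgfb1i1 was the one that rose. It encodes Hic-5, a LIM-domain relative of paxillin that is induced by TGF-beta. Its signals were 167, 264 and 222 at E11.5, 302, 309 and 389.9 at E12.5, and 467, 591 and 473 at E14.5. Each stage lay above the one before with no overlap. The change was 0.63 (SE 0.19, adjusted p = 0.135) in the first interval, 0.61 (SE 0.19, adjusted p = 0.0496) in the second and 1.24 (SE 0.19, adjusted p = 0.000972) over the course. The second-interval call was lost without array C of E11.5, array A, B or C of E12.5 or array A, B or C of E14.5 (adjusted p 0.0519 to 0.144), whereas the call over the course held without each array in turn. Pxn, paxillin itself, had a difference of 0.34 (adjusted p = 0.116) with overlapping stages. Bcar1, which encodes the docking protein p130Cas, had lower signals at E14.5 with no overlap, at -0.43 (adjusted p = 0.0583), and was called in 3 of the alternatives.

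Of the actin-linked adaptors only Tns1 was called. Tensin 1 joins beta tails to actin in mature, fibrillar adhesions. Its signals were 535, 711 and 547 at E11.5, 575, 624 and 707 at E12.5, and 919.7, 715 and 882 at E14.5. The highest E11.5 value and the lowest E14.5 value, both on array B, nearly met. The change of 0.49 (SE 0.16, adjusted p = 0.0383) was lost without array A or C of E11.5, array B of E12.5 or array A or C of E14.5 (adjusted p 0.0576 to 0.119), while 2 other probe sets gave 0.48 and 0.76. Zyx, zyxin, had a difference of 0.31 (adjusted p = 0.272), Tns3 one of 0.20 (adjusted p = 0.312), and Flna, filamin A, one of 0.08 (adjusted p = 0.714) with a 95% interval of -0.26 to 0.41. Over the 30 tested members, 15 had no overlap between E11.5 and E14.5 arrays, 7 between E11.5 and E12.5, and 15 between E12.5 and E14.5. Over all tested genes the shares with no overlap were 51.3%, 23.6% and 42.5%, so the members' counts lie near the background. Of the members without overlap, 4, 7 and 6 were not called.

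**Figure D3:**
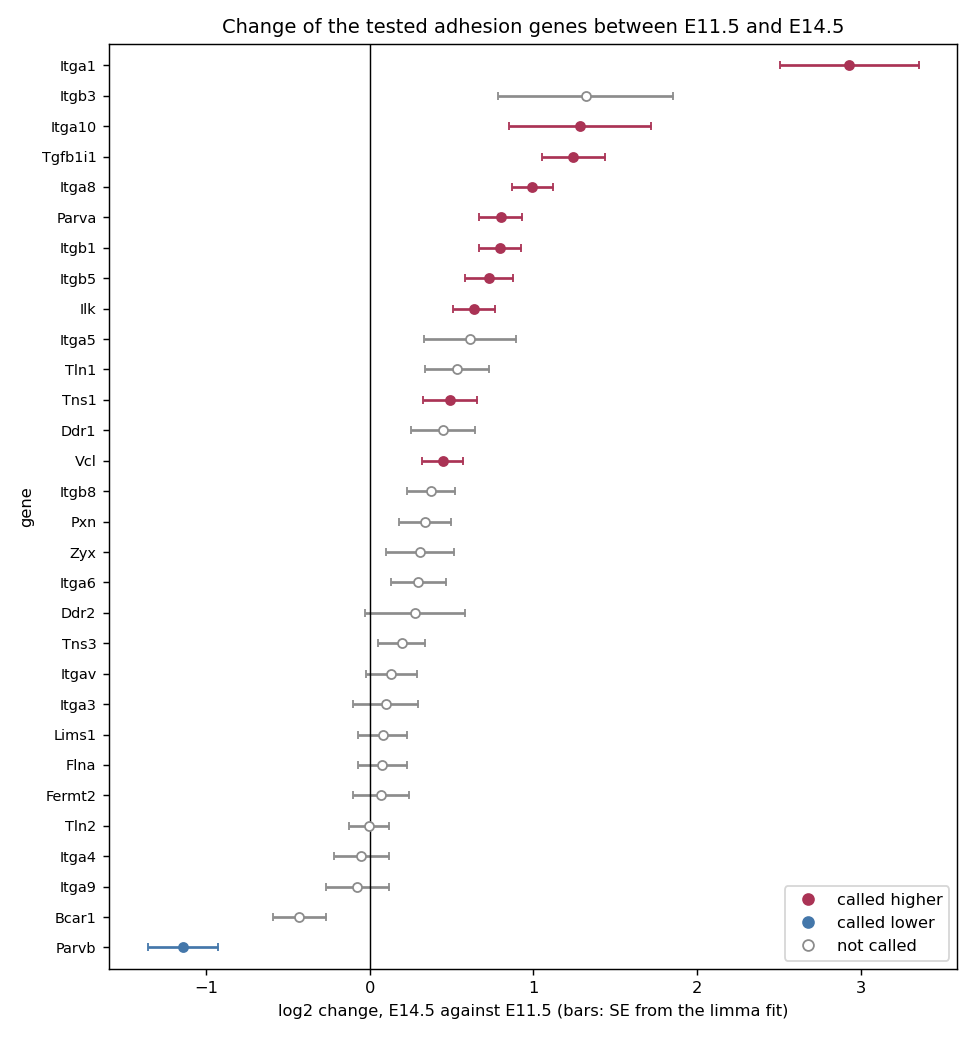
Log2 change between E11.5 and E14.5 of the 30 tested members, in order of size, with bars for the SE of the limma fit and filled points for called genes. The values run from -1.14 for Parvb to 2.93 for Itga1, and most open points lie between 0 and 0.6.

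A wider list of focal adhesion genes held 46 genes, 44 with a probe set and 42 tested. Over the course 13 of them rose (30.95%) and 2 fell (4.76%), beside 22.8% and 17.7% of all tested genes. Their median change was 0.27. In the first interval 0 were called, beside 3.11% of all tested genes called higher and 0.441% lower. In the second 7 rose (16.67%) and 2 fell (4.76%), beside 12.6% and 9.32% of all tested genes. The largest change was that of Cav1, the coat protein of caveolae, whose signals were 131, 141 and 155 at E11.5, 101, 131 and 162 at E12.5, and 1517, 1286 and 779 at E14.5. E11.5 and E12.5 overlapped and all E14.5 arrays were far above, with 3.01 (SE 0.25, adjusted p = 2.54e-05). Flnc, muscle filamin, rose by 2.52 (SE 0.35, adjusted p = 0.000526), Tns2, tensin 2, by 2.43 (SE 0.32, adjusted p = 0.000355), and Pdlim1, an actinin-binding LIM protein, by 1.38 (SE 0.19, adjusted p = 0.000500). Fblim1, migfilin, which binds filamin and kindlin, changed by -0.80 (SE 0.14, adjusted p = 0.00169), and Crkl, an adaptor that binds p130Cas and paxillin, by -0.36 (SE 0.12, adjusted p = 0.0365). Summed endothelial and skeletal muscle markers were also higher on every E14.5 array than on every E11.5 array. The same held for the sums of tendon, epidermal and blood markers and of genes that respond to cell dissociation. Cartilage sums overlapped, and those of nerve and glia were lower.

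**Figure D4:**
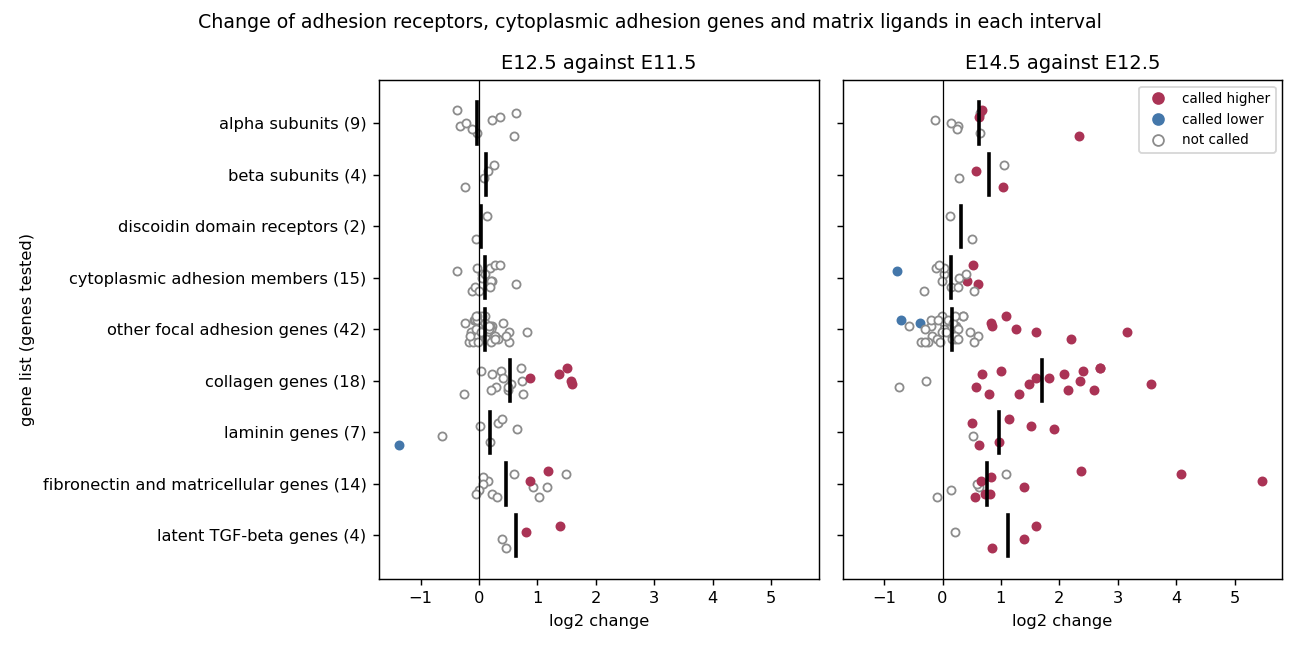
Log2 change of each tested gene (points) in the first and in the second interval for receptor, cytoplasmic and ligand lists, with the number tested in brackets and a black bar at the list's median. In the first interval no adhesion gene is called and 5 collagen genes are, beside 3.11% of all tested genes called higher and 0.441% lower. In the second interval the medians of the ligand lists are 1.71 (collagen), 0.97 (laminin), 0.77 (fibronectin and matricellular) and 1.12 (latent TGF-beta). Those of the adhesion lists are 0.63 (alpha subunits), 0.80 (beta subunits), 0.32 (discoidin domain receptors), 0.15 (cytoplasmic members) and 0.16 (other focal adhesion genes).

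The label of the cells was checked with tendon genes. Scx was high throughout, at 19338 ± 3927 at E11.5, 16656 ± 557 at E12.5 and 11152 ± 3339 at E14.5 (SD, n = 3), and Tnmd, a gene of maturing tendon, went from 21.4 ± 18.1 to 8066 ± 1811. Of 6 tendon markers tested, 5 rose over the course and Scx fell by 0.81. Markers of other cells moved too, beside 22.8% of all tested genes called higher over the course and 17.7% lower. Skeletal muscle markers, summed over 11 genes, lay at 4099.9 to 6722 at E11.5 and at 9288 to 12546 at E14.5, with Pax7, Myog, Des, Actc1 and Tnnt2 called higher and Pax3 lower. Endothelial markers, summed over 7 genes, lay at 341 to 629 at E11.5 and at 1101 to 1512 at E14.5, with 4 of 5 tested (Cdh5, Kdr, Tek and Emcn) called higher, while Tie1 was below the floor on 8 of the 9 arrays. Cartilage markers were called higher in 5 of 9 (Acan, Matn1, Hapln1, Col11a2 and Cnmd).

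Epidermal markers summed to 974 to 1113 at E11.5 and 1301 to 1622 at E14.5, with 3 of 5 tested called higher (Krt5, Epcam and Cdh1) and Krt8 lower. Blood markers summed to 385 to 429 at E11.5 and 550.1 to 632 at E14.5, with Csf1r the 1 of 3 called higher. Of the integrin genes of blood cells, 2 of 9 were tested and Itga2b rose by 0.81 (adjusted p = 0.0484). Nerve and glia markers summed to 672 to 815 at E11.5 and 494 to 634 at E14.5, with Tubb3 called lower. Genes that respond to cell dissociation, summed over 8, lay at 8329.6 to 39843 at E11.5 and at 41172 to 78187 at E14.5, with 6 of 8 called higher (Fos, Fosb, Jun, Atf3, Egr1 and Hspa1a). At each stage the letter A array had the highest of these sums. The part of other cells and of dissociation in the changes of the adhesion genes was not tested.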

How the data were processed

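The submitters' processing notes name MAS5 and Affymetrix Expression Console 1.1, and the authors deposited 1 intensity for each probe set on each array, on a linear scale (0.0409 to 45906.5). Array medians ranged from 68.7 to 118 and the mean without the lowest and highest 2% was 500 on all 9 arrays, so no further normalisation was made. At each stage the median rose from array A to B to C: 68.7, 79.6 and 106 at E11.5, 69.5, 94.5 and 106 at E12.5, and 81.5, 91.1 and 118 at E14.5. Precision is limited by there being 3 arrays a stage.

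Of 45101 probe sets, 34945 listed with 1 gene symbol were used, and 932 with several symbols, 9160 not listed and 64 controls were not. A gene was represented by the probe set whose mean log2 signal was highest, and by an _x_at probe set (open to related sequences) only if it had no other. Signals under 22.7 (the 25th percentile) were raised to it before log2, and a gene was tested if above 90.6 (the median) on at least 3 arrays. limma 3.58.1 in R 4.3.3 fitted 1 mean per stage (6 residual degrees of freedom), and two-sided p-values were adjusted by Benjamini-Hochberg over 11572 genes. Figures were drawn with matplotlib 3.10.9.

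The members and lists were chosen with earlier results of these data known. Values of all arrays are given for called members and for Itgb1, Itgav, Itga5, Tln1, Ilk and Ddr2. Of each ligand list and the wider adhesion list, the named genes are up to 4 called genes with the largest change, plus a fixed list of ligands. Lama1 and the genes called in marker lists are named too. Fblim1 and Crkl, as the 2 genes of the wider list that fell, were named after their values were seen. The same holds for Acan, Vtn, Col4a1, Col4a2 and Col5a3.

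The labels do not say whether samples came from separate litters, so p-values measure the spread between these samples. After removal of stage means, same-letter arrays correlated across genes. From E11.5 to E12.5 r was 0.519 for A, 0.133 for B and 0.331 for C. From E12.5 to E14.5 it was 0.311, 0.122 and 0.289. Arrays of different letters reached 0.121 in the first interval (E11.5 C with E12.5 B) and 0.175 in the second (E12.5 B with E14.5 C). The letters may pair the A and the C arrays of these comparisons, and whether they pair the B arrays cannot be told. The values given are from the fit without pairs, and those with the letters as a replicate block stand beside them where a call changed. From E11.5 to E14.5 r was 0.314, -0.00471 and 0.237, beside -0.403 to 0.174 for arrays of different letters. The letters may thus pair the A and the C arrays of this comparison too. The calls that the replicate block changed there are given below. Alternatives changed the floor, filter, scaling, probe set rule, variance prior, letter block and arrays used.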

Additional observations from a re-analysis of the deposited data

How the results depend on the processing

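No member reversed its direction where it was called. Over the course, with 10 members called higher and 1 lower, the settings that moved a count by over 1.5 times were median centring (3 higher), quantile normalisation (2 lower), a trended and robust prior (2 lower) and the mean over a gene's probe sets (0 lower, since Parvb then failed the filter). Without 1 array in turn, 7 to 11 rose and 1 to 2 fell. In the second interval, with 8 higher and 1 lower, median centring gave 1 and 0, the mean of probe sets 5 and 0, no filter 0 lower, and the fit without the letter A arrays 2 and 0. Without 1 array in turn, 3 to 9 rose and 0 to 1 fell. The 1 member called for its difference between intervals became 0 with no floor, with either other scaling, with the mean of probe sets, with the replicate block, without the letter A arrays, and without each array in turn (0 to 0). With the letters as a replicate block 10 members rose and 1 fell over the course, with Tns1 lost (adjusted p = 0.0502) and Tln1 gained, 0 changed in the first interval, and 7 rose and 1 fell in the second; in the comparisons with E12.5 it changed no call beside those of Ilk and Itgb1. The cause of other lost calls was not tested. Over all members, comparisons and alternatives, 2113 values kept their side of the threshold, 101 lost a call and 16 gained one. Most of the 2113 belong to changes that were not called in the main fit, so that count does not measure how stable the calls are. Signals near the floor limit Itga1, Itgb3 and the 6 members not tested, and 3 arrays per stage limit every small change.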
